A study of Mus musculus with 6 samples.

Results

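The aquaporins are a family of membrane channels for water, and in some members also for glycerol, and they were examined here in the ageing mouse cochlea. The members were the 8 genes Aqp1, Aqp2, Aqp3, Aqp4, Aqp5, Aqp7, Aqp8 and Aqp9, taken as every probe set that the platform annotation gives exactly 1 of these symbols. This found 13 of the 22626 probe sets on the array, and 8 of the 12393 genes that it names. The samples came from the cochlea, the coiled part of the inner ear that senses sound. All mice were male DBA/2J, an inbred strain known for early, progressive loss of hearing. One group was 36 weeks old (3 samples) and the other 7 weeks old (3 samples). All 6 samples shared strain and sex, the labels name no treatment, and each was hybridised to 1 Affymetrix array as biotin-labelled cRNA. The labels do not say whether a sample was 1 mouse or pooled cochleae, so p-values measure only the spread between these samples.

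Each aquaporin is a tetramer in which every subunit has its own pore, and water follows the osmotic gradient that ion transport sets up. Aqp1, Aqp2, Aqp4 and Aqp5 are water-selective, Aqp3, Aqp7 and Aqp9 also pass glycerol, and Aqp8 passes ammonia and hydrogen peroxide besides water. In the cochlea, water channels lie next to the cells that keep the potassium-rich endolymph apart from the perilymph. Aqp1 is known from type III fibrocytes of the spiral ligament, Aqp4 from supporting cells and Aqp5 from outer sulcus cells. Mice without Aqp4 hear poorly.

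The arrays had median signals of 844.0 to 859.4 at 36 weeks and of 766.3 to 800.5 at 7 weeks. Log2 values correlated at 0.957 to 0.960 between arrays of one age and at 0.842 to 0.852 between ages, so no single array stood apart. Coch and Otos, genes of cochlear fibrocytes, were bright at both ages. Of 12 cochlea-defining genes, 8 were bright enough to be tested. Tecta, Oc90, Slc26a5 and Pou4f3 were too dim on average over both ages, the last 2 being genes of hair cells.

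One aquaporin rose and one fell. Aqp5 was 3.69-fold higher at 36 weeks, Aqp1 was 1.53-fold lower, and neither Aqp4 nor Aqp2 passed the test. The other 4 genes were too dim to be tested. Of the 13 probe sets, 5 were bright enough, meaning a mean log2 value over all 6 arrays above the 40th percentile, which corresponds to a signal of 560.7. That mean spans both ages, so a gene well above the cut-off at one age only can still count as too dim. Of these 5, 1 was called higher and 1 lower by limma at a Benjamini-Hochberg adjusted p under 0.05. Among all 13575 tested probe sets 33.6% were called, 16.2% higher and 17.3% lower, and the counts for the aquaporins are read against those shares. With each array centred on its median, the calls over all probe sets split into 1675 higher and 3052 lower, against 2203 and 2355 with the scaling as deposited. That centring lowered the median difference over all tested probe sets by 0.10 on the log2 scale, and Aqp5 and Aqp1 kept their direction and call under it.

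**Figure D1:**
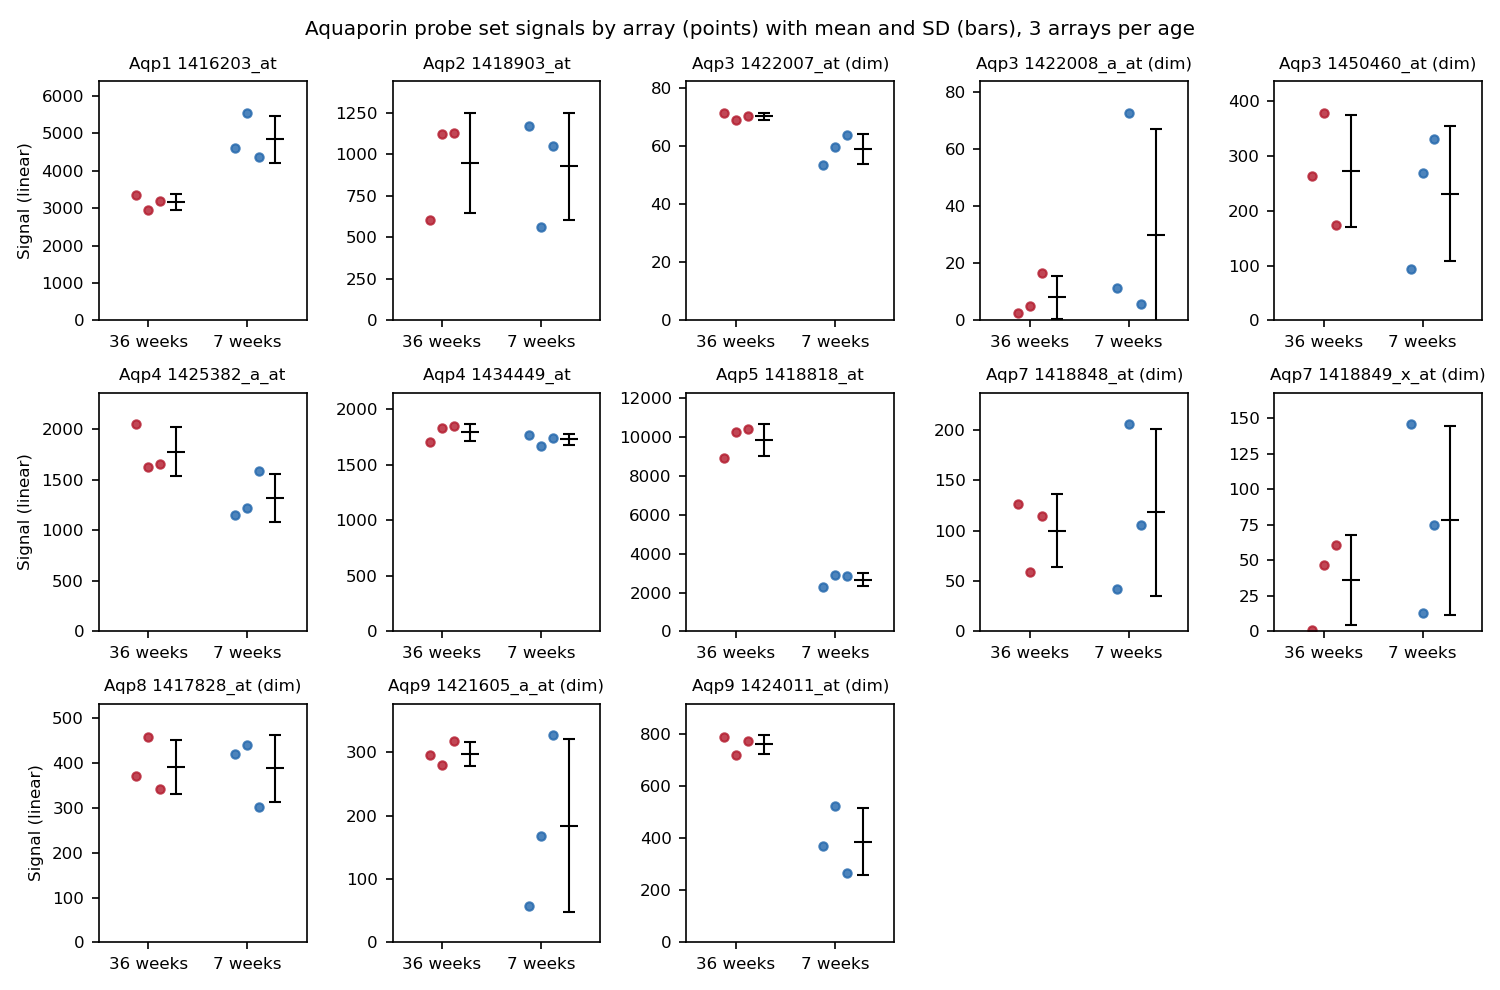
Linear signal of each aquaporin probe set on each array (points), at 36 weeks (left, red) and 7 weeks (right, blue), with the mean and SD of 3 arrays beside them and every axis starting at 0. Aqp5 lies at 8907 or above at 36 weeks and at 2903 or below at 7 weeks, Aqp1 is lower at 36 weeks on every array, and the panels marked dim were not tested.

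Aqp5 carried the larger change. It is the water channel of the apical membrane of salivary, lacrimal and airway gland cells, where it lets water follow secreted salt. Its probe set gave signals of 8907, 10268 and 10394 at 36 weeks, against 2268, 2903 and 2835 at 7 weeks. All 3 older arrays were above all 3 younger ones, a separation that, by any margin, 23.4% of all tested probe sets showed upwards and 23.9% downwards. The ratio of an old to a young array lay between 3.07 and 4.58 in the 9 pairs, and 5.41% of all tested probe sets were at least 1.5-fold higher in every pair. The means were 9856 ± 824 at 36 weeks and 2669 ± 349 at 7 weeks (SD, n = 3 each). The log2 difference, 36 weeks minus 7 weeks on the log2(signal + 50) scale, was 1.87 ± 0.11 (SE), with a 95% interval of 1.62 to 2.12 and a limma adjusted p of 6.20e-07. In all, 1.30% of the tested probe sets had a larger positive difference, and Aqp5 ranked 177th from the top. Because both ages were bright, the offset of 50 had little part in the size, and an offset of 1 gave 1.89.

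Aqp2, the vasopressin-regulated channel of the kidney collecting duct, lies beside Aqp5 on chromosome 15 in the RefSeq table, with Aqp6 as the next gene on the other side of Aqp5. Aqp2 had signals of 601.8, 1121 and 1126 at 36 weeks and of 1168, 562.2 and 1053 at 7 weeks. The ages overlapped, and each had 1 array near the lower end. The log2 difference was 0.04 ± 0.31, with a limma adjusted p of 0.932. Its interval of -0.64 to 0.73 allows anything between 0.64-fold and 1.65-fold, so a change of the size seen for Aqp5 lies outside it. The spread within an age was wide, larger than in 96.1% of the tested probe sets.

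The stretches before the start sites of these neighbours and of Aqp1 are shown because Aqp5 and Aqp1 are the members that passed the test and Aqp2 adjoins Aqp5. Each is the 250 bases before the RefSeq start (build GRCm38.p6), read 5′ to 3′ on the gene's own strand, which is the plus strand for all 3. They are chr15:99590778-99591027 for Aqp5, chr15:99578806-99579055 for Aqp2 and chr6:55336049-55336298 for Aqp1. Capitals mark the motifs TATAA and GGGCGG, searched on both strands, which cannot overlap each other.
Aqp5: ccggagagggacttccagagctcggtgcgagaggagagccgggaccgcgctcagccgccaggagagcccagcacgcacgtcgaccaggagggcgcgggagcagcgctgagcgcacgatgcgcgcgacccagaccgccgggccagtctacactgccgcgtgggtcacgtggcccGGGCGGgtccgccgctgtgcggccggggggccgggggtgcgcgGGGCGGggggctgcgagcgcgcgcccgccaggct
Aqp2: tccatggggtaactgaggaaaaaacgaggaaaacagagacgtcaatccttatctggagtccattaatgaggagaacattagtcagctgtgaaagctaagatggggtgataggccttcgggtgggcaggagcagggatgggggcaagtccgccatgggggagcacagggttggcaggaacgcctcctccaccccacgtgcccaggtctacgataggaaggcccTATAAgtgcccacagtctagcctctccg
Aqp1: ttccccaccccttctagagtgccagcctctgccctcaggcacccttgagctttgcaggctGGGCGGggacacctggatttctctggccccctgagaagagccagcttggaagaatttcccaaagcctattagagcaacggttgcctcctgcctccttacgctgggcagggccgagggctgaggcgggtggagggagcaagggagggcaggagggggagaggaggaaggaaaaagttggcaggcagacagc

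The Aqp5 window is 78.4% G or C and holds 38 CG dinucleotides, against a median of 52.4% and 6 over all 32841 RefSeq windows of the same length. Its G and C content is above that of 98.1% of those windows. The Aqp2 window is 55.6% G or C with 8 CG dinucleotides, and the Aqp1 window is 62% with 5. GGGCGG, the core of the GC box, occurs 2 times before Aqp5 and 1 time before Aqp1, and 32.7% of all windows hold it. TATAA, the core of the TATA box, occurs 1 time before Aqp2, and 22.8% of all windows hold it. These matches describe the sequence alone.

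Aqp1, the first water channel to be identified, is abundant in red blood cells, capillary endothelium and the choroid plexus besides the spiral ligament. Its signals were 3359, 2945 and 3188 at 36 weeks, against 4602, 5549 and 4361 at 7 weeks. All older arrays were below all younger ones, by a ratio of 1.30 to 1.88 in the 9 pairs. The means were 3164 ± 208 at 36 weeks and 4837 ± 628 at 7 weeks (SD, n = 3 each). Aqp1 fell by 0.60 ± 0.11 on the log2 scale, with a 95% interval of -0.85 to -0.35 and a limma adjusted p of 0.00209. Its place in the whole array was not extreme, since 10.9% of tested probe sets had a lower difference. Not all 9 pairs reached 1.5-fold, so Aqp1 is not called by a rule that asks for that in every pair, which 4.87% of tested probe sets met downwards.

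Aqp4, the water channel of astrocyte end-feet, cochlear supporting cells and fast muscle fibres, was measured by 2 probe sets that gave different values. The probe set 1434449_at had signals of 1705, 1826 and 1845 at 36 weeks and of 1770, 1671 and 1737 at 7 weeks. These overlapped closely, with a log2 difference of 0.05 ± 0.12 and an interval of -0.21 to 0.32 (0.86-fold to 1.25-fold). Its spread within an age was narrower than that of all but 2.55% of tested probe sets. The probe set 1425382_a_at had signals of 2053, 1622 and 1657 at 36 weeks and of 1146, 1221 and 1586 at 7 weeks. Its ages did not overlap, although the highest young array came within a ratio of 1.02 of the lowest old one. The log2 difference was 0.42 ± 0.17, with an interval of 0.06 to 0.79 and a limma adjusted p of 0.0724, short of the threshold. Without replicate 3 of 7 weeks, its brightest young array, the difference was 0.56 with an adjusted p of 0.0321.

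The 3 differences between member probe sets given here, taken within each array and chosen after their values were seen, were compared between the ages by an exact two-sided permutation test, which cannot give a p below 0.1 with 3 arrays against 3. Aqp5 minus Aqp1 was 1.62 ± 0.20 on the log2 scale at 36 weeks and -0.85 ± 0.21 at 7 weeks (SD, n = 3 each, exact p = 0.1, adjusted p = 0.15 over 3 comparisons). A difference within an array is little affected by how the arrays were scaled. The ages could not overlap in this one, since Aqp5 was higher and Aqp1 lower on every older array. Its p was thereby fixed, and it adds no support to those 2 results. Aqp5 minus Aqp2 was 3.36 ± 0.37 at 36 weeks and 1.53 ± 0.68 at 7 weeks (exact p = 0.1, adjusted p = 0.15). Its change of 1.83 was mostly that of Aqp5, whose own log2 difference was 1.87, so it is no separate support. The difference between the Aqp4 probe sets, 1425382_a_at minus 1434449_at, was -0.02 ± 0.24 at 36 weeks and -0.39 ± 0.24 at 7 weeks (exact p = 0.3, adjusted p = 0.3), and its arrays overlapped. A test of this size cannot settle whether the 2 Aqp4 probe sets differ in their change. Levels of different probe sets depend on their probes, so only the change of these differences with age can be read.

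**Figure D2:**
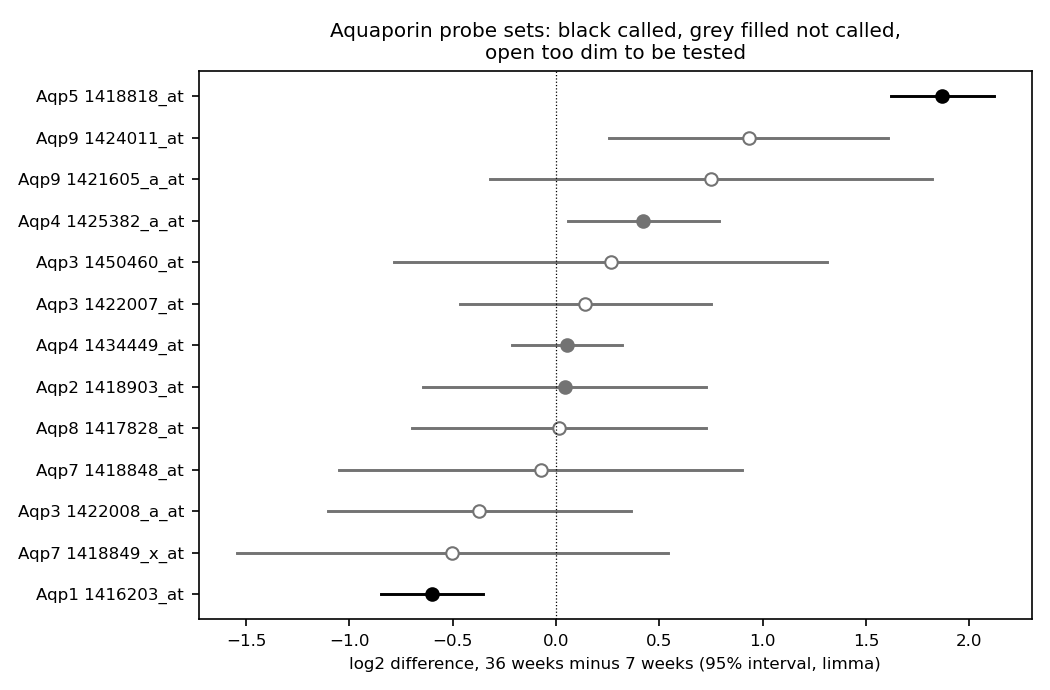
Log2 difference, 36 weeks minus 7 weeks, of each aquaporin probe set with its 95% interval from limma; filled points were tested and black ones called, open points were too dim to be tested. The interval of Aqp5 runs from 1.62 to 2.12 and that of Aqp1 from -0.85 to -0.35, and the intervals of the dim probe sets are up to several times as wide.

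The glycerol channels and Aqp8 were dim, with no probe set among the tested ones, so for these 4 genes values are given without a call. Aqp9, a glycerol and water channel of liver and of neutrophils, came closest to the cut-off. Its probe set 1424011_at had signals of 788.1, 717.9 and 773.5 at 36 weeks and of 368.8, 522.9 and 267.4 at 7 weeks. All older arrays were above all younger ones, as was so for 12.9% of the 9051 untested probe sets. The log2 difference was 0.93 ± 0.30 with an interval of 0.26 to 1.61, and in a fit of all probe sets without the filter its limma adjusted p was 0.0583. The second Aqp9 probe set, 1421605_a_at, had 296.1, 279.4 and 317.7 at 36 weeks and 56.7, 168.6 and 327.9 at 7 weeks. There the ages overlapped, since 1 young array was above all old ones, and the interval ran from -0.32 to 1.82.

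Aqp3, the glycerol and water channel of basal keratinocytes and other epithelia, had 3 dim probe sets. The brightest, 1450460_at, had signals of 263.8, 379.1 and 174.6 at 36 weeks and of 93.5, 269.0 and 331.5 at 7 weeks, and the ages overlapped. The probe set 1422007_at lay between 68.8 and 71.3 at 36 weeks and between 53.6 and 63.9 at 7 weeks. Its ages did not overlap, but the log2 difference of 0.14 had an interval of -0.47 to 0.75. The third, 1422008_a_at, stayed between 2.5 and 16.6 at 36 weeks and between 5.6 and 72.7 at 7 weeks, near the floor of the signal.

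Aqp7, the glycerol channel of fat cells, was dim on both probe sets. The probe set 1418848_at had signals of 126.5, 58.5 and 114.8 at 36 weeks and of 42.3, 206.0 and 105.9 at 7 weeks. The other, 1418849_x_at, whose name marks probes that may bind related transcripts, lay between 0.9 and 61.1 at 36 weeks and between 13.2 and 146.2 at 7 weeks. Both overlapped between the ages. In the RefSeq table Aqp7 and Aqp3 are neighbours on chromosome 4. Aqp8, known from pancreas, liver and colon, had 370.8, 458.4 and 342.3 at 36 weeks and 420.8, 440.8 and 302.2 at 7 weeks. The values overlapped, and the interval of its log2 difference, -0.70 to 0.73, leaves room for a change of 0.62-fold to 1.66-fold. The intervals of all Aqp3, Aqp7 and Aqp8 probe sets included 0.

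**Figure D3:**
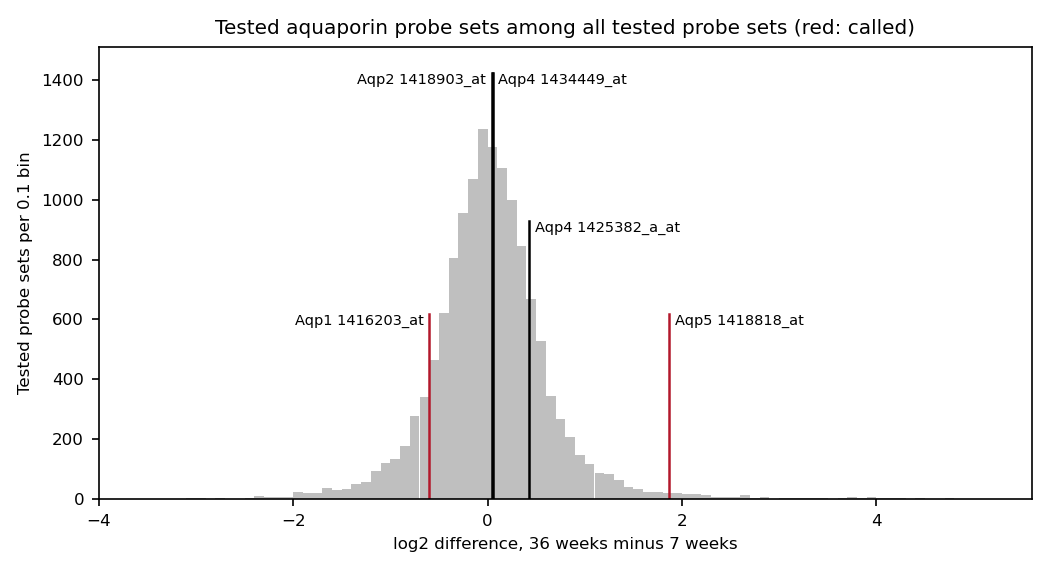
Histogram of the log2 differences, 36 weeks minus 7 weeks, of all 13575 tested probe sets (bins of 0.1), with the 5 tested aquaporin probe sets as vertical lines whose heights carry no meaning. Aqp5 at 1.87 lies in the upper tail, beyond all but 1.30% of the probe sets, Aqp1 at -0.60 lies on the lower slope, and Aqp2 and both Aqp4 probe sets lie within the main body.

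The genes whose centred log2 values over the 6 arrays lay nearest to those of Aqp5 and Aqp1 were found by root mean square distance among 8541 genes, each by its brightest tested probe set. With 2 ages this mostly picks genes with a like difference. Nearest to Aqp5 were Pcp2, a protein of cerebellar Purkinje cells, at a distance of 0.062, Thrsp, a protein of fat-making tissues, at 0.067, and Scgb3a1, a secretoglobin of airway and gland epithelium, at 0.10. Their log2 differences were 1.78 ± 0.10, 1.82 ± 0.12 and 1.85 ± 0.10. Nearest to Aqp1 were Clu, the secreted chaperone clusterin, at 0.025, Setd6, a lysine methyltransferase, at 0.053, and Mdh2, the mitochondrial malate dehydrogenase, at 0.056. Their log2 differences were -0.59 ± 0.09, -0.61 ± 0.23 and -0.63 ± 0.08, and that of Setd6 did not pass the test (limma adjusted p of 0.0677).

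Genes that work with aquaporins were described by counts and medians. All tested probe sets together had a median difference of 0.02, and 33.6% of them were called, 16.2% higher and 17.3% lower. The counts for each list below are read against those shares. The probe sets of Clu, Dgat1, Slc4a1 and Ttr are of kinds that may bind related transcripts, so their identity is less certain. Of 10 matched genes of the complex that anchors Aqp4 in the membrane and of its partner channels, 7 were tested, of which 6 fell and 1 rose, with a median of -0.63. Kcnj10, the potassium channel found beside Aqp4 in glia and also in the stria vascularis, fell by 1.08 ± 0.13 to 1710 at 36 weeks, against 3674 at 7 weeks. Utrn, utrophin, fell by 0.70 ± 0.09, while Dtna, dystrobrevin alpha, rose by 0.55 ± 0.14. Much of this complex is also that of muscle fibres, and the fast skeletal muscle list given below had a median of -1.62 on the same arrays. Its part in these falls was not tested.

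Of 12 matched genes of vasopressin and cAMP signalling, which moves Aqp2 to the membrane, 8 were tested, of which 2 rose, 1 fell and 5 did not pass, with a median of 0.12. Prkaca, the catalytic subunit of protein kinase A, rose by 0.47 ± 0.09, Adcy3, an adenylyl cyclase, rose by 0.36 ± 0.12, and Adcy9, another cyclase, fell by 0.48 ± 0.09. Avp, vasopressin itself, and its receptors Avpr1a and Avpr2 were too dim to be tested. Of 10 matched genes of glycerol and lipid stores, the setting of Aqp7, 9 were tested, of which 3 rose, 1 fell and 5 did not pass, with a median of 0.34. Gpd1, the glycerol phosphate dehydrogenase, rose by 1.11 ± 0.10, Dgat1, which makes triglyceride, by 1.13 ± 0.12, and Gpd2 fell by 0.53 ± 0.11.

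Of 12 genes of gland fluid secretion, the setting in which Aqp5 is best known, 8 were tested, of which 2 rose, 2 fell and 4 did not pass, with a median of 0.00. Kcnn4, a calcium-activated potassium channel of gland and blood cells, rose by 1.39 ± 0.20, and Itpr3, a calcium release channel, rose by 0.39 ± 0.11. Slc12a2, the chloride-loading cotransporter of glands and of the cochlear lateral wall, fell by 1.24 ± 0.07 to 11239 at 36 weeks, against 26563 at 7 weeks. Car2, a carbonic anhydrase, fell by 0.81 ± 0.08. Cftr, Ano1, Chrm1 and Chrm3, a pair of chloride channels and the muscarinic receptors that drive gland flow, were too dim to be tested. Their means were at most 130.4 at 36 weeks and at most 118.4 at 7 weeks. The list thus held as many called falls as called rises. Over all tested probe sets those shares were also near each other, at 17.3% and 16.2%, so the split is not particular to the list.

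Markers of several cell types that contain aquaporins had larger differences than Aqp1 or Aqp4. In whole tissue fewer cells of a type and less RNA per cell cannot be told apart. How much tissue from around the cochlea each sample held is not known here, so a difference in it between the ages cannot be told apart from age either. For Aqp5, of 12 tested markers of secretory and mucosal epithelium 10 rose, 1 fell and 1 did not pass, with a median of 2.33. Their summed signal, over 13 matched genes, was 469470 to 506184 at 36 weeks and 83589 to 85025 at 7 weeks, without overlap. Tff2, a trefoil peptide, rose by 4.52 ± 0.07 and Muc5b, a mucin, by 4.18 ± 0.08, while Epcam, an epithelial adhesion molecule, fell by 0.37 ± 0.11, and Krt19 alone was too dim. The list of inner and outer sulcus and supporting cells had mostly falls. It mixes these cells, so it does not give the outer sulcus cells, from which Aqp5 is known, by themselves. Of its 9 tested markers 6 fell, 1 rose and 2 did not pass, with a median of -1.05. The part of either group of cells in the rise of Aqp5 was not tested.

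For Aqp1, all 10 tested markers of spiral ligament fibrocytes fell, with a median of -1.90. Tbx18, with means of 251.6 at 36 weeks and 1016 at 7 weeks, was too dim over both ages to be tested with them. Their summed signal was 107129 to 109901 at 36 weeks and 337646 to 345126 at 7 weeks. Otos fell by 2.42 ± 0.06 and Coch by 1.93 ± 0.06. The wider list of cochlea-defining genes shares Coch, Otos and Slc26a4 with the fibrocyte list. All 8 of its tested members fell, with a median of -1.49. Of the 4 too dim for a call, Tecta was lower at 36 weeks by 0.98 ± 0.32. Pou4f3 was higher by 1.98 ± 0.58 (685.9 against 176.6), Oc90 by 0.63 ± 0.58 and Slc26a5 by 0.33 ± 0.32. The summed signal of the list was 46140 to 47297 at 36 weeks and 192943 to 199600 at 7 weeks, most of it from Coch and Otos. Of 9 tested endothelial markers 1, Vwf, rose by 0.88 ± 0.19 and 8 did not pass, with a median of 0.04, and their sums overlapped, at 11916 to 13928 at 36 weeks and 10936 to 12612 at 7 weeks. Tie1 was too dim over both ages to be tested, with means of 413.6 at 36 weeks and 52.0 at 7 weeks (log2 difference 2.23 ± 0.39).

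Of 4 tested erythroid markers 1 fell, Slc4a1, the red cell anion exchanger, by 1.89 ± 0.13, and 3 did not pass, with a median of 0.01. Hba-a1, Epb42, Rhag and Kel were too dim, and the sums over 8 genes were 10480 to 11370 at 36 weeks and 12482 to 13082 at 7 weeks. Of 2 tested choroid plexus markers 1, Ttr, fell by 2.00 ± 0.11, with sums of 4064 to 5073 at 36 weeks and 14585 to 15784 at 7 weeks over 6 genes. The median of those 2 was -1.06, and Kcne2, Otx2, Kl and Sostdc1 were too dim over both ages. Of these, Sostdc1 had means of 211.6 at 36 weeks and 1582 at 7 weeks. The part of any of these cell types in the fall of Aqp1 was not tested.

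For Aqp4, of 9 tested markers of sulcus and supporting cells 6 fell, 1 rose and 2 did not pass, with a median of -1.05. This list shares Epyc, Tecta, Otoa and Otog with the cochlea-defining list, Gjb2 and Gjb6 with the fibrocyte list and Slc1a3 with the astrocyte list. Among its called falls, only Fgfr3 is in no other list. Epyc, a proteoglycan, fell by 3.63 ± 0.09 and Gjb2, a connexin, by 1.88 ± 0.07, while Lfng rose by 0.51 ± 0.16. Tecta and Cldn14 were too dim, and the sums over 11 genes were 22085 to 22998 at 36 weeks and 73738 to 74261 at 7 weeks. Of 7 tested astrocyte markers 3 rose, 3 fell and 1 did not pass, with a median of 0.18. Aldoc, the brain aldolase, rose by 1.73 ± 0.06 and Aldh1l1 by 0.71 ± 0.23, while S100b fell by 1.69 ± 0.09 and Glul by 1.02 ± 0.09. Slc1a2 was too dim, and the sums over 8 genes were 58532 to 64295 at 36 weeks and 77649 to 87348 at 7 weeks.

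All 12 fast skeletal muscle markers fell, with a median of -1.62, Tnni2 by 1.94 ± 0.07 and Mylpf by 2.32 ± 0.09. Their sums were 116557 to 122829 at 36 weeks and 303104 to 323924 at 7 weeks. Most tested markers of supporting cells and all those of fast muscle fell, those of astrocytes went both ways, and neither Aqp4 probe set was called. The part of these cells in the Aqp4 values was not tested.

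For the glycerol channels, all 11 tested neutrophil markers rose, with a median of 3.74, S100a9 by 3.74 ± 0.06 and Ltf, lactoferrin, by 3.65 ± 0.06. The sums over 12 genes were 687373 to 731905 at 36 weeks and 49519 to 54378 at 7 weeks. Itgam was not tested because its mean log2 value over both ages was under the cut-off, with signals of 1465 at 36 weeks and 23.9 at 7 weeks. The rise of the neutrophil markers stood beside the 0.93 of the brighter Aqp9 probe set, and its part was not tested. Of 6 tested adipocyte markers 3 rose and 3 did not pass, with a median of 0.60. Ucp1, of brown fat, rose by 4.25 ± 0.28 and Fabp4 by 1.30 ± 0.13, and Cidec and Lep were too dim. The sums over 8 genes were 22026 to 23908 at 36 weeks and 12196 to 12917 at 7 weeks, while Aqp7 was too dim to be tested. Of 5 tested markers of keratinised epithelium 3 fell and 2 did not pass, with a median of -1.07. Krt1 fell by 1.07 ± 0.18 and Krt10 by 1.08 ± 0.19, Trp63 and Sfn were too dim, and the sums over 7 genes were 4031 to 4816 at 36 weeks and 6897 to 8022 at 7 weeks.

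**Figure D4:**
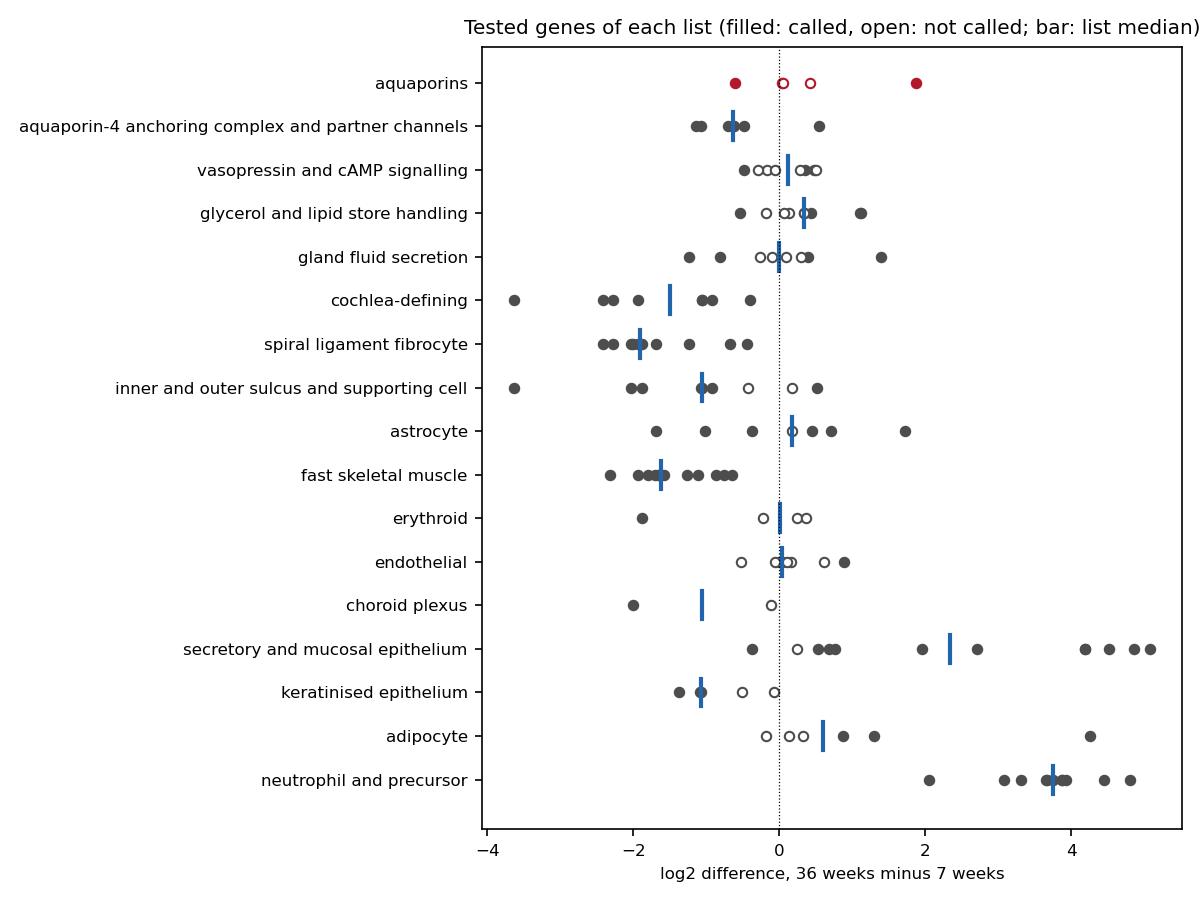
Log2 difference, 36 weeks minus 7 weeks, of the tested aquaporin probe sets (top, red) and of the tested genes of each list (grey), with filled points called by limma, open points not called and a bar at each list's median. Aqp5 lies within the wide range of the secretory and mucosal epithelium genes, -0.37 to 5.08, whose median is 2.33. It also lies within the range of the adipocyte genes. The sulcus and supporting cell genes have a median of -1.05. Aqp1 lies to the right of the median of the spiral ligament fibrocyte genes, -1.90.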

How the data were processed

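Cochlear RNA of 6 samples was measured on single-colour arrays. The deposited values are linear intensity values per probe set. No source used here names the software that made them. Trimmed means, taken between the percentiles 2 and 98 of each array, were 1490 to 1493, so the authors' table had been scaled, and its absolute scale is unknown. No detection calls were used. Of 22626 probe sets, 20380 had 1 gene symbol in the platform annotation, 691 had several and 1555 had none. All 13 aquaporin probe sets matched the RefSeq gene table by Entrez identifier. Promoter sequences are from RefSeq, GRCm38.p6.

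Values were transformed as log2(signal + 50), which understates changes of dim probe sets. The 13575 probe sets with a mean log2 value above the 40th percentile were fitted in R 4.3.3 with limma 3.58.1 (lmFit, then eBayes with an intensity trend), unpaired and two-sided, with Benjamini-Hochberg adjustment over all of them. The mean log2 value was chosen for this filter, in place of the mean linear signal, after the calls under both had been seen, because its counts match an earlier description of these data. Dim members were given values from a fit of all probe sets. The fit was tested on simulated data. Python 3.11.15 and matplotlib 3.10.9 made the tables and figures. The number of arrays limits the precision.

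Members, gene lists and rules were chosen with earlier results of these data known. Named genes were all members, the members of each list with the 2 smallest p in each called direction, and the 3 genes nearest to each called aquaporin. A listed gene was represented by its brightest probe set. Further genes were named because they were too dim. Alternatives were offsets of 1 and 16, quantile normalization, median centring, no filter, a filter at the 60th percentile, no intensity trend, a replicate block, each array left out, all 9 pairs at 1.5-fold or more, the mean over a gene's probe sets and, added after seeing the data, the filter on the mean linear signal.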

Additional observations from a re-analysis of the deposited data

How the results depend on the processing

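Aqp5 stayed higher and past the threshold under all 9 alternative fits, with log2 differences of 1.77 to 1.91, and with each array left out, 1.76 to 1.94. Aqp1 stayed lower and past it, at -0.70 to -0.57, and at -0.67 to -0.50 with an array left out. With 1.5-fold asked of all 9 pairs, Aqp5 alone of the 5 tested aquaporin probe sets was called, 0 were called lower, and over all tested probe sets 734 were higher and 661 lower. With an array left out, 1 to 2 aquaporin probe sets were called higher and 1 lower, and over all probe sets 1772 to 1991 were higher and 1826 to 2044 lower. The second was Aqp4 1425382_a_at without replicate 3 of 7 weeks (0.56, adjusted p = 0.0321), and its leave-one-out range was 0.32 to 0.56. The mean over both Aqp4 probe sets was 0.24. Aqp4 1434449_at changed sign with median centring (-0.050) and ran from 0.03 to 0.09 with an array left out, never past the threshold. Aqp2, also never past it, turned to -0.058 with quantile normalization and to -0.060 with median centring, and ran from -0.26 to 0.32 with an array left out. It was -0.10 without replicate 2 or replicate 3 of 36 weeks. The cause of these moves was not tested. With the replicate number as a block, the calls were 1 higher and 1 lower among the aquaporins, and 2071 and 2226 over all probe sets. Deviations of same-numbered arrays correlated at 0.048, -0.014 and -0.0030, and 2 of 6 arrays correlated best with their own number. These values show no pairing by number, but with 3 arrays per age they cannot exclude it. Among dim probe sets, an offset of 1 moved Aqp3 1422008_a_at to -1.32 and Aqp7 1418849_x_at to -1.61. Both lie near the floor, and their values depend on the offset. With the filter on dim probe sets taken on the mean linear signal, added after seeing the data, 4665 of 13575 probe sets were called, 2267 higher and 2398 lower, and the same 5 aquaporin probe sets were tested, with 1 higher and 1 lower.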

Other observations

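Mip, the lens water channel of the same family, was in the list of other family channels and was dim. Its brighter probe set had means of 127.0 at 36 weeks and 92.0 at 7 weeks, with a log2 difference of 0.24 and an SE of 0.45, and it was not tested. Aqp6, Aqp11 and Aqp12 were in the same list but matched no probe set with 1 gene symbol, so they were not analysed here.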
